A study of Mus musculus with 48 samples.

Results

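Pou5f1, Nanog, Sox2, Klf2, Klf4, Esrrb, Zfp42, Tfcp2l1, Tbx3 and Prdm14, the 10 transcription regulators taken here as the naive pluripotency factors, were followed while female mouse embryonic stem cells (ESCs) were induced toward gonadal somatic cell-like cells (GSCLCs). The members were picked by symbol. All 10 had a row among the 13682 genes of the FPKM table (fragments scaled by transcript length and by library size), among the 22173 genes of the count table and, matched by Ensembl gene ID, among the 32285 genes of the single-cell table. Every sample was labelled C57BL/6. The female ESCs, with or without a β-actin-GFP transgene, were kept on mouse embryonic fibroblasts in 2i and LIF, cleared of feeders by a short plating step, and reseeded on fibronectin in medium that lacked 2i and LIF. They then received neither compound (Con), vitamin C (Vc), the retinoic acid receptor alpha agonist AM580, or both (V580), with 2 libraries per treatment at 24 h and at 48 h, and 3 libraries of V580 cells at D4, D6, D8 and D10. Cells separated from female gonads of the E12.5 embryo (E12.5_GC), for which the methods describe depletion of SSEA1-positive cells, gave 3 libraries. Count libraries of gonadal somatic cells, 2 per stage, came from the P6w ovary and from female gonads at E12.5, at E13.5 and later at E16.5, and V580 cells of D6 gave 1 droplet sample. Which of the ESC lines entered a library was not given, and nothing said that libraries of a group came from separate cultures or animals, so the p-values measure only the spread between these libraries.

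Naive pluripotency is the state of the preimplantation epiblast, held in culture by LIF, which signals through Jak and Stat3, and by inhibitors of Mek and Gsk3 (2i), of which the latter relieves repression by Tcf7l1. Pou5f1 and Sox2 bind DNA together and are shared by naive and primed cells. Nanog, Esrrb, Klf2, Klf4, Tfcp2l1, Tbx3 and Prdm14 belong more closely to the naive state, with Klf4 and Tfcp2l1 downstream of Stat3, Esrrb downstream of Gsk3 inhibition, and Zfp42 (Rex1) serving as a marker gene of that state. Several of them are not restricted to pluripotent cells. Pou5f1, Nanog, Sox2 and Prdm14 are also expressed by primordial germ cells, Klf2 by endothelium, Klf4 by many epithelial and mesenchymal cells, and Tbx3 by mesenchyme of the limb and other organs.

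AM580 acts through a nuclear receptor, and the octamer is the site of Pou5f1 itself, so the 4 member promoters that held letters of either kind are shown. RefSeq windows on GRCm38.p6, 300 bases long, were found for 8 of the 10 members (11 windows, since some members have alternative starts), and Tbx3 and Prdm14 had none. Each line gives the 250 bases that precede the annotated start, 5′ to 3′ on the strand of the gene, with the match in capitals. The hexamer AGGTCA, bound by nuclear receptors, was present on either strand in Pou5f1 (chr17:35505782-35506031, plus strand, first base at -33 from the start), Nanog (chr6:122707239-122707488, plus strand, -248) and Sox2 (chr3:34649745-34649994, plus strand, -244). The octamer ATGCAAAT was present in Zfp42 (chr8:43307010-43307259, minus strand, -186).
Pou5f1: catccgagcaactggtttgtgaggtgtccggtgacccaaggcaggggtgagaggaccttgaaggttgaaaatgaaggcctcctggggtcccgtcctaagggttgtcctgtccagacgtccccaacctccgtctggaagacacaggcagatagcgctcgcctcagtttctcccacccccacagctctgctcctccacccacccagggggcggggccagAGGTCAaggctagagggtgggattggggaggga
Nanog: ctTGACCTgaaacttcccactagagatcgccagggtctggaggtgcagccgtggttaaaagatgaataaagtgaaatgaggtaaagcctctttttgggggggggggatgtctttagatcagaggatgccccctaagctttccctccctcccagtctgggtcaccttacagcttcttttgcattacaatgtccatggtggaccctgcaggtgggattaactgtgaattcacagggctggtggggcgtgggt
Sox2: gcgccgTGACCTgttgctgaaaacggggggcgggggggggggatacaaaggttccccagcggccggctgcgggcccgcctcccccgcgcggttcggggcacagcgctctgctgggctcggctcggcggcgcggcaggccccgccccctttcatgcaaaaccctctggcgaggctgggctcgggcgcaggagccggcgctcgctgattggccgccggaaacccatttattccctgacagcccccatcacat
Zfp42: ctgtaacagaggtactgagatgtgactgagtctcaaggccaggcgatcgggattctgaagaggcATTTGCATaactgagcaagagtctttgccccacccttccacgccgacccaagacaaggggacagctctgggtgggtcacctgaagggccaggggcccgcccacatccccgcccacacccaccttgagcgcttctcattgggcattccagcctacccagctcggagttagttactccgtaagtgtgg
Read on both strands, AGGTCA was in 16.3% of all 32851 windows of this length and ATGCAAAT in 1.74%. These shares are per window, whereas a member was counted with a match in any of its windows. The alternative windows of Pou5f1 and Nanog held no match. The Esrrb site TCAAGGTCA, which contains AGGTCA, the Sox site AACAAAG and the STAT site TTCCNGGAA were in 0.423%, 5.85% and 1.15% of all windows, and in 0 of the 8 members. These matches describe letters in the windows and no binding was measured. The GC content of the member windows ran from 45.7% in the downstream Pou5f1 window to 74.3% in Klf4, against a median of 52.7% over all windows.

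Total counts of the 8 stage libraries ranged from 12694769 to 22259044. The FPKM table gave no read totals, and the spacing of its low values gave the relative depth of the libraries. The E12.5 libraries of the count table were labelled female, yet held 97 and 103 counts of the Y-linked Ddx3y where the other 6 libraries held 0 to 4, and 231 and 159 counts of Amh, a Sertoli and granulosa cell hormone, where E13.5 held 15 and 8, so the comparisons with E12.5 are given with that limit. The methods describe removal of SSEA1-positive cells from the induced culture, but no source said whether the D4 to D10 and single-cell libraries were made after it. SSEA1 is also carried by ESCs, so this step and a fall in transcription cannot be told apart there. In bulk libraries fewer cells of a type and less RNA per cell cannot be told apart either. Fold changes below are differences of log2(FPKM + 1), which understate the change of low genes, and a gene was called at a Benjamini-Hochberg adjusted p below 0.05 over all genes tested with limma.

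In control cells, 24 h after 2i and LIF had been withdrawn, Pou5f1 was by far the most abundant of the 10 per transcript length, at 692 and 758 FPKM, followed by Sox2 at 160 and 157 FPKM. Zfp42, Esrrb, Nanog and Klf2 were between 30.6 and 46.6 FPKM. Klf4 and Tfcp2l1 were between 10.4 and 14.8 FPKM, Tbx3 was at 3.36 and 2.97 FPKM, and Prdm14 at 0.278 and 0.416 FPKM. Prdm14 never passed the filter of 1 FPKM in 2 libraries and was not tested.

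Between 24 h and 48 h without compounds, all 9 tested members fell, in a comparison in which 66.0% of the 10644 genes tested were called and 33.6% were called lower. On the log2(FPKM + 1) scale the falls were unequal. Esrrb, an orphan nuclear receptor, went from 37.3 and 37.8 FPKM to 5.82 and 5.96 FPKM, a log2 difference of -2.49 ± 0.06 (SE, limma adjusted p = 1.085e-13). Klf4 went from 14.8 and 14.1 FPKM to 2.16 and 1.73 FPKM (-2.40 ± 0.08) and Tfcp2l1 from 12.3 and 10.4 FPKM to 1.52 and 1.53 FPKM (-2.28 ± 0.10). The 48 h libraries were below the 24 h libraries without overlap for each of the 9, but the share of all genes without overlap was not counted. On this scale the differences were smaller for Tbx3 (-1.59), Klf2 (-1.55), Zfp42 (-1.12), Sox2 (-1.04) and Nanog (-0.81), and smallest for Pou5f1, from 692 and 758 FPKM to 451 and 461 FPKM (-0.67 ± 0.05). In FPKM itself Tbx3, from 3.36 and 2.97 to 0.349 and 0.423, fell by a larger factor than Esrrb, and by group means so did Klf4 and Tfcp2l1. The untested Prdm14 was at 0.196 and 0.130 FPKM at 48 h.

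Other genes of the network moved with them over the same interval. Of 16 tested genes of an additional pluripotency list, 14 fell and 2 rose, with a median log2 difference of -0.63 against 0.0017 for all genes tested. Dppa5a, an RNA-binding protein abundant in ESCs, went from 2467 and 2701 FPKM to 1199 and 1233 FPKM. Of 9 LIF and Wnt pathway inputs 6 fell and 0 rose. Of 12 formative and primed genes listed, only 4 had FPKM values. All 4 were tested and rose (median 2.15), where 32.4% of all genes were called higher. Among them were the de novo methyltransferase Dnmt3b, from 151 and 145 FPKM to 403 and 423 FPKM, and Lefty1, a Nodal antagonist, from 3.53 and 3.46 FPKM to 99.9 and 96.2 FPKM. Fibroblast genes fell too, with 5 of 6 tested called lower and 1 higher. The summed level of the 8 fibroblast genes in the table was 114 to 121 FPKM at 24 h and 29.6 to 31.3 FPKM at 48 h, none of the 8 was at 0, and the part of carried-over feeder cells in the fall of Klf4 and the other members was not tested.

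**Figure D1:**
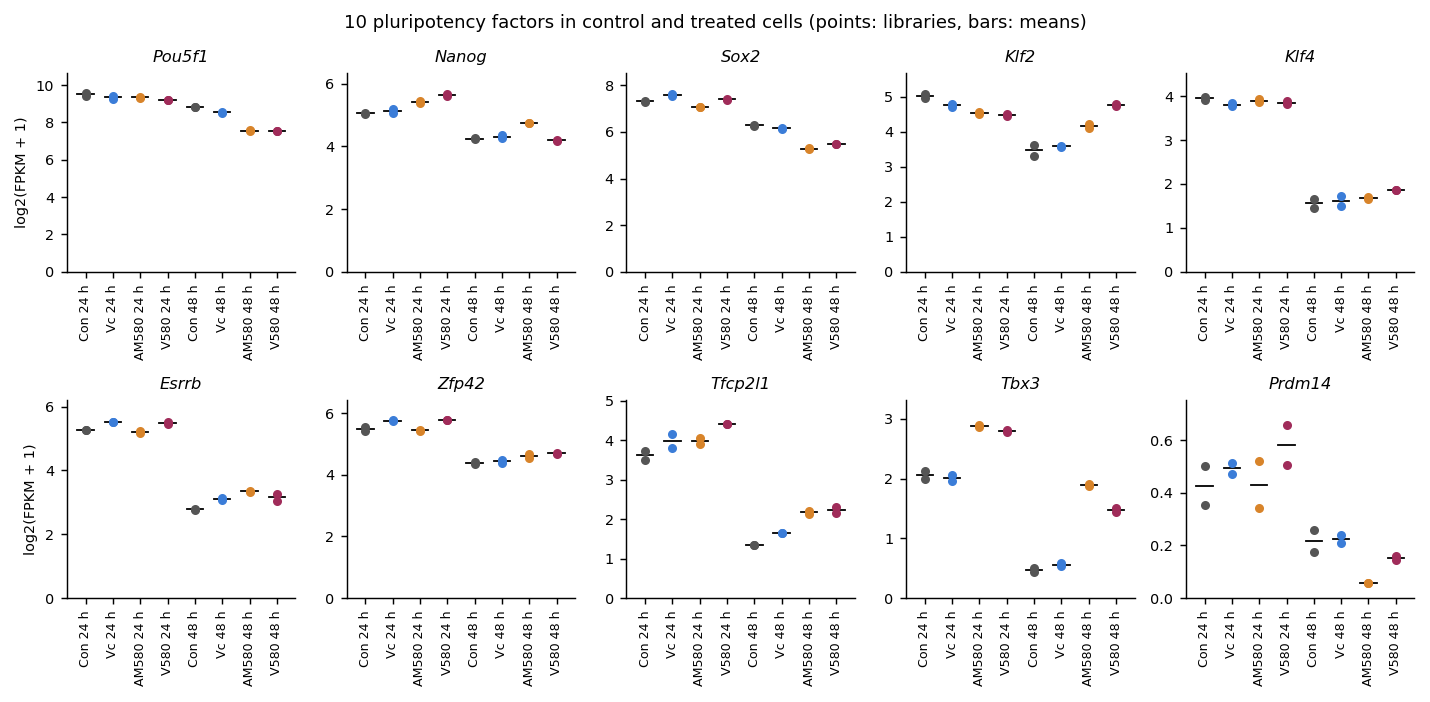
Level of the 10 factors in log2(FPKM + 1) on the vertical axis of each panel, with 1 point per library for Con, Vc, AM580 and V580 at 24 h and 48 h (n = 2 per group), a bar at the group mean and a scale of its own in each panel. Pou5f1 stays highest throughout, and in AM580 and V580 at 48 h it lies at 182 to 195 FPKM, below the 451 and 461 FPKM of Con.

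Vc alone left the members close to the controls. At 24 h, 4 of 9 members were higher and 1 lower (13.6% of all genes called, 7.57% higher and 5.98% lower), and none differed by more than 1.28-fold. Sox2 rose from 160 and 157 FPKM to 187 and 197 FPKM (0.27 ± 0.04, limma adjusted p = 0.000356), and this call held without any single library. The calls of Klf2 (-0.26, lower), Tfcp2l1 (0.36), Esrrb (0.25) and Zfp42 (0.26) were each lost without 1 of the 4 libraries. For Klf2 these were either control library or Vc replicate 2, for Tfcp2l1 control replicate 2 or Vc replicate 2, and for Esrrb and Zfp42 control replicate 1. Fitted on those 4 libraries alone, 0 of the 9 were called, Sox2 included. Pou5f1 was not called in the main fit (-0.15 ± 0.05, limma adjusted p = 0.0859). It was called lower without control replicate 1 (-0.21) or Vc replicate 1 (-0.23), and by edgeR on recovered fragments (-0.14).

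At 48 h of Vc, 2 members were higher and 1 lower (12.4% of all genes called, 6.37% higher and 6.07% lower). Pou5f1 was at 369 and 378 FPKM against 451 and 461 FPKM in the controls (-0.29 ± 0.05, adjusted p = 0.00314 by limma), and Esrrb at 7.39 and 7.82 FPKM against 5.82 and 5.96 FPKM (0.32 ± 0.06). Tfcp2l1 was at 2.16 and 2.11 FPKM against 1.52 and 1.53 FPKM, a call lost without any of the 4 libraries, with the replicate number as a block (limma adjusted p = 0.0638), without the filter and with median ratio scaling.

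AM580 divided the members by direction, more so at 48 h than at 24 h. At 24 h, Nanog, Tfcp2l1 and Tbx3 were higher and Sox2 and Klf2 lower (5 of 9, against 14.8% of all genes called, 7.69% higher and 7.16% lower), of which the Tfcp2l1 call was lost without AM580 replicate 2 or control replicate 2. At 48 h, 8 of 9 were called, 6 higher and 2 lower, against 57.0% of all genes called, 25.7% higher and 31.2% lower. Pou5f1 was at 182 and 195 FPKM after 48 h of AM580, well under the controls at 451 and 461 FPKM, a log2 difference of -1.27 ± 0.05 (limma adjusted p = 8.50e-11). Its difference at 24 h was -0.16 ± 0.05 and not called (adjusted p = 0.0733 by limma), though called without control replicate 1 (-0.22), and the change of the AM580 effect between the times was itself called (-1.11 ± 0.08). Sox2 took the same course, from 135 and 135 FPKM against 160 and 157 FPKM at 24 h (-0.23) to 37.0 and 38.6 FPKM against 76.2 and 77.2 FPKM at 48 h (-1.002 ± 0.04).

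The 6 members that rose with AM580 at 48 h did so from control levels that had already dropped. Tbx3 was at 2.67 and 2.77 FPKM against 0.349 and 0.423 FPKM in the controls, the largest rise of the 9 (1.43 ± 0.07, limma adjusted p = 1.89e-10), after 6.27 and 6.44 FPKM against 3.36 and 2.97 FPKM at 24 h (0.82 ± 0.07). Nanog was at 26.1 and 25.9 FPKM against 18.1 and 17.7 FPKM (0.52 ± 0.05). Tfcp2l1 (0.84), Klf2 (0.69), Esrrb (0.56) and Zfp42 (0.22) were higher as well, the last by a call lost without AM580 replicate 2. In each of the 6 genes, both AM580 libraries at 48 h were nevertheless below both control libraries of 24 h. Klf4, at 2.26 and 2.13 FPKM, was not called (0.12 ± 0.08), though called without control replicate 1 (0.23).

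V580, the combination, gave 5 higher and 2 lower at 24 h (29.0% of all genes called, 1439 genes higher and 1647 lower) and 6 higher and 2 lower at 48 h (57.1%, 25.9% higher and 31.2% lower). Pou5f1 was at 597 and 590.3 FPKM at 24 h (-0.29 ± 0.05 against Con) and at 189 and 185 FPKM at 48 h (-1.28 ± 0.05, limma adjusted p = 7.14e-11). Nanog was higher at 24 h, at 47.1 and 50.2 FPKM against 32.5 and 31.9 FPKM (0.58 ± 0.05), and lay at 17.4 and 17.2 FPKM against 18.1 and 17.7 FPKM at 48 h, which was not called (-0.05 ± 0.05). Klf2 went the other way. It was lower at 24 h, at 20.9 and 21.7 FPKM against 32.7 and 30.6 FPKM (-0.55 ± 0.08), and higher at 48 h, at 25.7 and 27.1 FPKM against 8.96 and 11.47 FPKM (1.30 ± 0.08). At 24 h Zfp42, Tfcp2l1, Tbx3 and Esrrb were higher too, the last by a call lost without either control library or V580 replicate 2. Between the times the V580 effect changed for 6 of 9 members and the AM580 effect for 7 of 9, against 33.9% and 35.0% of all genes. The change of the Klf2 effect between the times was 1.85 ± 0.11 (limma adjusted p = 1.97e-08) for V580 and 1.17 ± 0.11 for AM580.

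**Figure D2:**
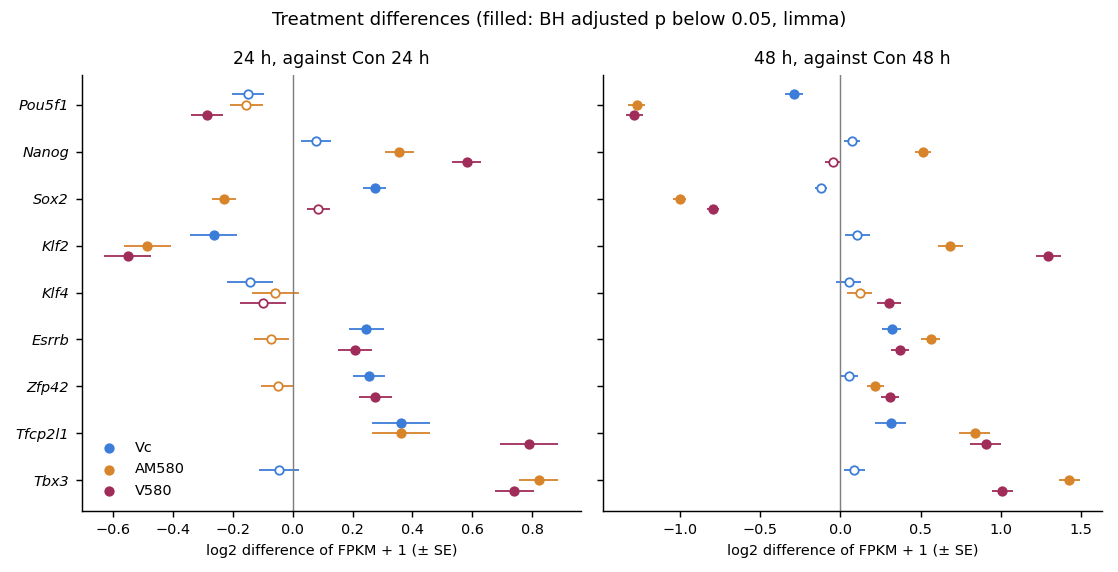
Log2 difference from Con of the same time (horizontal axis, log2(FPKM + 1) units, bars ± SE) for the 9 tested members under Vc, AM580 and V580, with 24 h on the left and 48 h on the right filled points for called differences and separate horizontal scales for 24 h and 48 h. Klf2 lies left of 0 at 24 h (-0.49 for AM580, -0.55 for V580) and right of 0 at 48 h (0.69 and 1.30), while Pou5f1 and Sox2 lie farthest left at 48 h.

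The remaining V580 members at 48 h were Tbx3, at 1.85 and 1.73 FPKM (1.01 ± 0.07 against Con), Tfcp2l1, at 3.98 and 3.47 FPKM (0.90 ± 0.10), Esrrb (0.37), Zfp42 (0.31), Klf4 (0.30, lost without control replicate 2) and Sox2, at 43.5 and 44.2 FPKM (-0.79 ± 0.04). Prdm14, untested, was at 0.0397 and 0.0412 FPKM with AM580 and 0.117 and 0.107 FPKM with V580 against 0.196 and 0.130 FPKM in the controls, levels of 2 to 10 recovered fragments per library.

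Addition of Vc to AM580 was compared directly. At 24 h, 5 members were higher in V580 than in AM580 and 0 lower (14.8% of all genes called, 7.44% higher). Sox2 (0.32), Zfp42 (0.33) and Esrrb (0.28), with Nanog (0.22) and Tfcp2l1 (0.43), made up the 5. The calls of Nanog and Esrrb were lost without AM580 replicate 1 or V580 replicate 2, and that of Tfcp2l1 without AM580 replicate 1 or V580 replicate 1. At 48 h, 2 were higher and 3 lower (19.2%, 8.51% higher and 10.7% lower). Klf2 was higher by 0.61 ± 0.08 and Sox2 by 0.21 ± 0.04. Nanog, at 17.4 and 17.2 FPKM against 26.1 and 25.9 FPKM, was lower by a log2 difference of -0.56 ± 0.05 (limma adjusted p = 1.95e-06), and Tbx3 by -0.42 ± 0.07. Esrrb (-0.19) was called lower, a call lost without either AM580 library or V580 replicate 2 and larger without V580 replicate 1 (-0.30). Pou5f1 differed between V580 and AM580 by -0.01 ± 0.05 at 48 h.

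Whether Vc acted differently with AM580 than alone was tested as an interaction. At 24 h, 0 of 9 members were called by limma, with 0.0376% of all genes called and 472 genes at an unadjusted p under 0.05, none of the 9 among them, and the edgeR fit on recovered fragments called 0 as well. At 48 h, 5 were called (3.61% of all genes, 1.06% higher and 2.55% lower). The effect of Vc was more negative with AM580 for Nanog (-0.63 ± 0.07), Esrrb (-0.51 ± 0.08) and Tbx3 (-0.50 ± 0.09), and more positive for Klf2 (0.51 ± 0.11) and Sox2 (0.33 ± 0.05). The Klf2 call was lost without either Vc library, AM580 replicate 1 or V580 replicate 2. Pou5f1 was not called at 48 h (0.28 ± 0.08, limma adjusted p = 0.0688). It was called with median ratio scaling (0.27), with only the compared groups fitted (0.28) and by edgeR on recovered fragments (0.27). These contrasts share the control, Vc and AM580 libraries with those above.

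Other groups of genes moved beside the members. All 5 tested retinoic acid response genes rose with AM580 at 48 h (median 2.77) and with V580 (2.71), among them Cyp26a1, which degrades retinoic acid, at 87.4 and 93.9 FPKM with AM580 and 119 and 123 FPKM with V580 against 1.05 and 0.670 FPKM in the controls. Of the 16 additional pluripotency genes, 4 rose and 9 fell with AM580 (median -0.29) and 3 rose and 12 fell with V580 (-0.34), where all genes had medians of -0.03 and -0.02. Dppa5a was among those that rose (0.91 with AM580, 0.59 with V580) and Utf1 among those that fell (-1.07 and -1.01). Of the 4 formative genes, 3 fell and 1 rose under either treatment. Dnmt3b was at 65.8 and 64.1 FPKM with AM580 and 69.0 and 68.1 FPKM with V580 against 403 and 423 FPKM in the controls, and Lefty1, the riser, at 492 and 507 FPKM with AM580. Extraembryonic endoderm genes rose with AM580 (7 of 7 tested), to a summed 21.9 to 22.6 FPKM against 5.39 to 6.02 FPKM in the controls, 11.4 to 13.2 FPKM with V580. None of the 7 was at 0, and their part in the differences of the members was not tested.

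Between 48 h and D4 of V580 the core factors fell far further. The 2 time points may be separate inductions, which cannot be told apart from time. In a joint fit all 9 tested members were called, 7 lower and 2 higher (74.1% of 11921 genes called, 34.7% lower and 39.4% higher). Pou5f1 was at 3.99, 3.34 and 3.34 FPKM on D4 against 189 and 185 FPKM at 48 h, a log2 difference of -5.37 ± 0.12 (limma adjusted p = 4.32e-21). Nanog was at 1.16, 0.811 and 1.19 FPKM (-3.16 ± 0.08), Esrrb at 0.581, 0.675 and 0.545 FPKM (-2.48 ± 0.06) and Sox2 at 8.11, 7.47 and 8.01 FPKM (-2.34 ± 0.10). Klf2 (-1.76), Zfp42 (-1.41) and Tfcp2l1 (-0.58) fell by less. On D4 Sox2 and Zfp42, at 8.80, 7.84 and 9.74 FPKM, were therefore above Pou5f1 in every library, whereas at 48 h Pou5f1 was above both.

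Klf4 and Tbx3 turned upward over the same interval. Klf4 was at 8.53, 9.19 and 10.4 FPKM on D4 against 2.61 and 2.64 FPKM at 48 h (1.51 ± 0.18) and Tbx3 at 6.92, 6.88 and 6.90 FPKM against 1.85 and 1.73 FPKM (1.502 ± 0.10). Of the 16 additional pluripotency genes 13 fell and 0 rose (median -2.10), with Dppa5a down from 1880 and 1785 FPKM to 202, 178 and 181 FPKM. All 9 LIF and Wnt inputs rose (median 0.67), including Socs3, the feedback inhibitor of Stat3 signaling (3.07 ± 0.14). Fibroblast genes rose in 6 of 8 and fell in 1. Their summed level was 34.2 to 36.3 FPKM at 48 h and 69.9 to 81.4 FPKM on D4, with none of the 8 at 0.

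Across D4 to D10, 7 members passed the filter of 1 FPKM in 3 libraries, and Nanog, Esrrb and Prdm14 did not. From D4 to D6, 4 of the 7 fell and 2 rose (44.9% of 11512 genes called, 23.0% lower and 21.9% higher). Pou5f1 dropped to 0.371, 0.320 and 0.410 FPKM on D6 (-1.73 ± 0.13, limma adjusted p = 7.94e-08), which corresponded to 16 to 22 recovered fragments per library. It lay between 0.235 and 0.521 FPKM on D8 and D10, where the days overlapped. Zfp42 dropped to 3.06, 1.94 and 2.43 FPKM on D6 (-1.503 ± 0.11), Sox2 to 4.67, 4.11 and 4.32 FPKM (-0.72 ± 0.11) and Tfcp2l1 to 1.102, 1.28 and 1.08 FPKM (-0.55 ± 0.10). The untested Nanog lay between 0.407 and 0.779 FPKM and the untested Esrrb between 0.0818 and 0.208 FPKM from D6 to D10, and Prdm14 was listed at 0 in 6 of those 9 libraries.

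Sox2 went on falling where Pou5f1 did not, to 1.65, 1.49 and 1.47 FPKM on D8 (-1.08 ± 0.11) and 0.546, 0.670 and 0.374 FPKM on D10 (-0.73 ± 0.11). No day overlapped another. Over all members 2 fell and 1 rose from D6 to D8 (41.1% of genes called, 20.3% higher and 20.9% lower), and 3 fell and 3 rose from D8 to D10 (34.5%, 1727 genes lower and 2242 higher). Zfp42 was lower on D8, at 1.39, 1.63 and 1.88 FPKM (-0.39 ± 0.11), and higher again on D10, at 2.51, 2.12 and 2.32 FPKM (0.34 ± 0.11). The first of these calls was lost without D6 replicate 1 or D8 replicate 1, and the second without D8 replicate 1 or 2 or D10 replicate 1 or 3. Tfcp2l1 was higher on D10 than on D8 (0.38 ± 0.10).

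Tbx3 climbed through the course, from 6.92, 6.88 and 6.90 FPKM on D4 to 17.6, 17.2 and 17.5 FPKM on D6 (1.22 ± 0.11), 24.1, 20.8 and 20.9 FPKM on D8 (0.31 ± 0.11) and 29.97, 30.15 and 31.38 FPKM on D10 (0.46 ± 0.11). The days did not overlap, although the call from D6 to D8 was lost without any of the 6 libraries. On D10 Tbx3 was the most abundant of the 10 per transcript length. Klf4 rose from D4 to 28.0, 23.4 and 24.5 FPKM on D6 (1.34 ± 0.19), lay at 22.4, 25.99 and 34.8 FPKM on D8 and fell to 13.505, 21.96 and 13.4 FPKM on D10 (-0.75 ± 0.19). Klf2 stayed between 6.18 and 12.49 FPKM from D4 to D8 and was at 3.67, 4.25 and 3.46 FPKM on D10 (-1.20 ± 0.43, limma adjusted p = 0.0445), a call lost without any of the 6 libraries of D8 and D10. The SE of that fit is shared with E12.5_GC, where Klf2 ran from 36.5 to 235 FPKM. The D8 and D10 libraries of Klf2 did not overlap. Fibroblast genes rose with Tbx3 at each step, in 7 of 8, 8 of 8 and 6 of 8, to a summed 1366 to 1681 FPKM on D10, and their part was not tested.

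**Figure D3:**
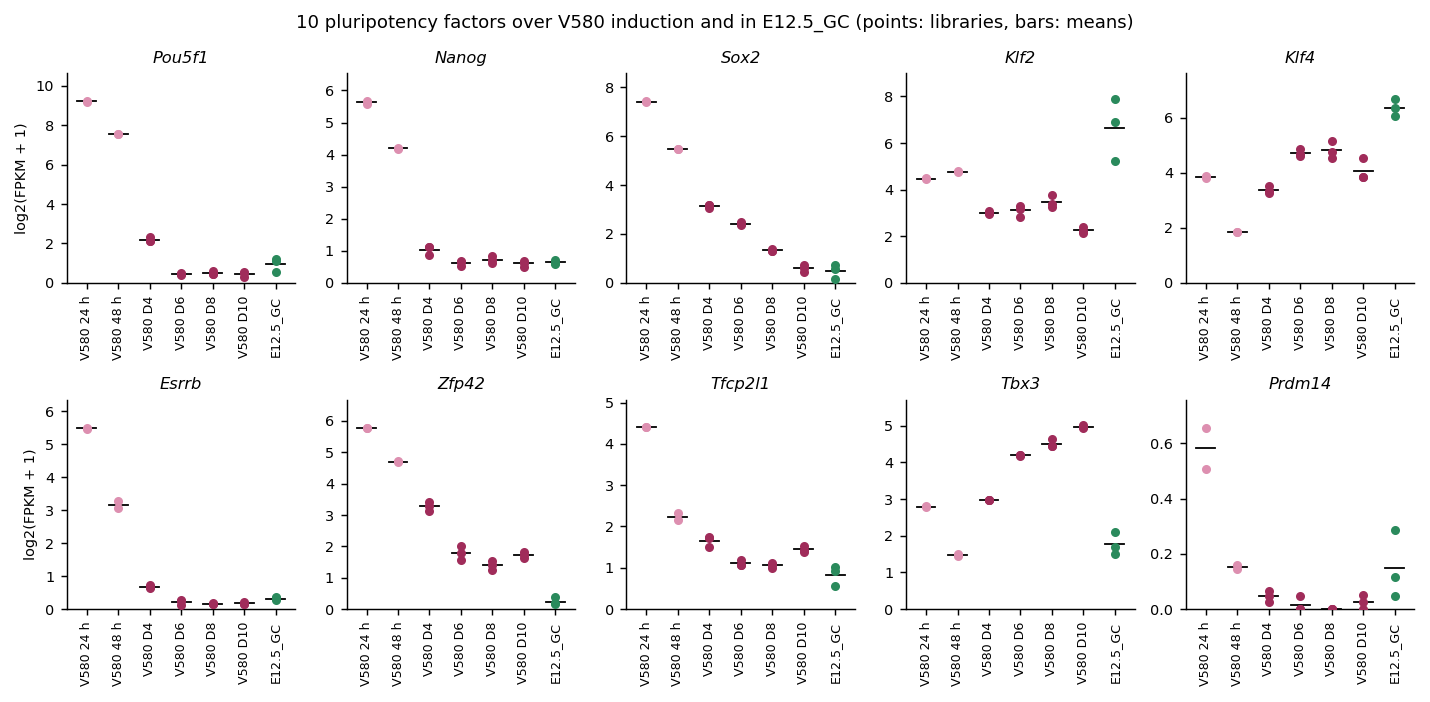
Level of the 10 factors in log2(FPKM + 1) (vertical axis) in V580 cells at 24 h, 48 h, D4, D6, D8 and D10 and in E12.5_GC (horizontal axis), with 1 point per library and a bar at each group mean. Pou5f1, Nanog and Esrrb reach their floor by D6, Sox2 falls until D10, and Tbx3 climbs from 1.73 and 1.85 FPKM at 48 h to 29.97 to 31.38 FPKM on D10.

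E12.5_GC, the cells that the induction was meant to approach, had little of the core factors. Pou5f1 was at 1.15, 1.31 and 0.477 FPKM, Sox2 at 0.490, 0.643 and 0.124 FPKM, Nanog at 0.626, 0.494 and 0.547 FPKM, Esrrb at 0.280, 0.261 and 0.203 FPKM and Zfp42 at 0.134, 0.295 and 0.109 FPKM. The highest of these amounted to 72 recovered fragments. Klf4 at 101, 66.0 and 80.5 FPKM and Klf2 at 235, 117 and 36.5 FPKM were the abundant members there. Klf2 varied widely among the 3 libraries, in the order of the erythroid Hba-a1 at 4045, 1559 and 967 FPKM, while the endothelial Cdh5 was at 35.0, 20.4 and 29.1 FPKM. The summed level of the 3 erythroid genes in the table was 1038 to 4434 FPKM in E12.5_GC and at most 0.739 FPKM on D4 to D10, with Hba-a1 listed at 0 in all D8 libraries and Hbb-bs in all D10 libraries. The 6 endothelial genes summed to 55.8 to 87.1 FPKM against 1.71 to 55.5 FPKM, with none at 0. The part of blood and endothelial cells in the Klf2 level was not tested.

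Against E12.5_GC, 5 members were higher and 2 lower on D4, 4 and 3 on D6, and 3 and 3 on both D8 and D10, in comparisons that called 71.6%, 67.0%, 63.2% and 69.5% of all genes (37.2%, 35.0%, 32.6% and 36.3% higher, 34.3%, 32.0%, 30.5% and 33.2% lower) and share the E12.5_GC libraries. Klf2 (-3.65 on D4 to -4.41 on D10) and Klf4 (-2.99 on D4, -1.54 on D8, -2.29 on D10) were lower on every day. Tbx3 was higher on every day, by 1.21 ± 0.11 on D4 and 3.21 ± 0.11 on D10 (limma adjusted p = 2.445e-12), from 3.31, 2.21 and 1.86 FPKM in E12.5_GC. Zfp42 was higher throughout as well (3.05 on D4, 1.49 on D10). Pou5f1 was above E12.5_GC on D4 (1.23 ± 0.13) and below it on D6 (-0.51 ± 0.13), D8 and D10, on the last days with overlapping libraries, and the D8 call was lost when only those groups were fitted. Tfcp2l1 was higher on D4 (0.82), D6 (0.27) and D10 (0.62), with the D6 call lost without E12.5_GC replicate 2 or D6 replicate 1 or 2, and on D8 it was not called, though it was without E12.5_GC replicate 3 (0.32) and by edgeR on the recovered fragments (0.49, edgeR adjusted p = 0.0487). Sox2 was above on D4 (2.66), D6 and D8, and on D10 the difference of 0.12 ± 0.11 was not called. Beside Pou5f1, the 8 germ cell genes in the table summed to 7.29 to 10.7 FPKM in E12.5_GC and 11.2 to 27.4 FPKM on D4 to D10. Dppa3, a germ cell and ESC gene named after its values were seen, was at 0.968, 2.06 and 0.573 FPKM in E12.5_GC. That is the order of Pou5f1 in the same 3 libraries, a description only. Dppa3 was listed at 0 in all D8 and D10 libraries. The part of germ cells in the Pou5f1 level of E12.5_GC was not tested.

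Over all 13 groups of the FPKM table the members fell into distinct orders of level. Pou5f1 ran from Con at 24 h (725 ± 46.5 FPKM, SD, n = 2) through the other 24 h groups, Con, Vc, AM580 and V580 at 48 h (187 ± 2.38 FPKM) and D4, down to D6 (0.367 ± 0.0451 FPKM, n = 3). Vc and AM580 overlapped at 24 h, as did AM580 and V580 at 48 h, and each neighbour in the sequence E12.5_GC, D8, D10 and D6. Nanog, Zfp42 and Tfcp2l1 were highest in V580 at 24 h (48.7 ± 2.20, 54.0 ± 0.517 and 20.2 ± 0.155 FPKM), and Sox2 and Esrrb in Vc at 24 h (192 ± 7.10 and 44.8 ± 0.174 FPKM), none of these overlapping the next group down. Klf2 and Klf4 were highest in E12.5_GC (129.6 ± 99.9 and 82.6 ± 17.7 FPKM) and Tbx3 on D10 (30.5 ± 0.770 FPKM), each above the next group without overlap. Lowest were Con at 48 h for Klf4 (1.95 ± 0.306 FPKM, overlapping Vc and AM580) and for Tbx3 (0.386 ± 0.0521 FPKM, without overlap), and D10 for Klf2 (3.79 ± 0.407 FPKM, without overlap).

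Correlations of group means over the 13 groups are given as descriptions, since groups share culture time and treatment. Pou5f1 and Nanog had a Pearson r of 0.986 and Pou5f1 and Sox2 of 0.971. Pou5f1 was negatively correlated with Tbx3 (-0.683) and Klf4 (-0.590), and Klf4 and Tbx3 had an r of 0.578. Klf2 stood apart, with r from -0.464 (Tbx3) to 0.461 (Prdm14) against the other 9. Among all genes with 1 FPKM in 2 libraries, the most similar in pattern were Mkrn1 to Pou5f1 (0.998), Gle1 to Sox2 (0.995), Arl14epl to Esrrb (0.997), Cep85 to Zfp42 (0.996) and Phf11d to Tfcp2l1 (0.992). For Tbx3, Prdm14, Klf4 and Klf2 they were Bhlhe40 to Tbx3 (0.991), Ogg1 to Prdm14 (0.980), Sfxn3 to Klf4 (0.973) and Star, a steroid synthesis gene, to Klf2 (0.934).

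In freshly isolated gonadal somatic cells, measured as counts, Klf4 dominated and the core factors were scarce. Klf4 had 3952 to 5854 counts in the 6 embryonic libraries and 868 and 758 counts in P6w. Klf2, Tbx3 and Tfcp2l1 had between 41 and 533 counts in every library. Pou5f1 was between 12 and 302 counts, and Nanog, Sox2, Esrrb, Zfp42 and Prdm14 never exceeded 21. Of the 10, 8 passed the count filter, and Esrrb and Prdm14 did not. Tests were made with edgeR's quasi-likelihood method over 16398 genes, with E12.5, E13.5 and E16.5 replicate 1 on 1 sequencing lane and E16.5 replicate 2 and P6w on another.

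Pou5f1 peaked at E13.5. The E12.5 libraries held 66 and 32 counts, those of E13.5 held 249 and 302, those of E16.5 held 32 and 21 and those of P6w held 23 and 12, with only the E13.5 libraries standing above all others. Its E13.5 level was above that of E12.5 by 2.68 ± 0.34 (edgeR adjusted p = 2.35e-05) and the fall to E16.5 was -3.47 ± 0.36 (adjusted p = 2.20e-06 by edgeR, -3.45 when the E12.5 libraries were left out of the fit). Of the 8 members, 2 rose and 1 fell from E12.5 to E13.5, against 45.9% of all genes called, 23.8% higher and 22.1% lower. Sox2, the other riser, had 3 and 6 counts at E12.5 and 18 and 16 at E13.5 (2.05 ± 0.79, edgeR adjusted p = 0.0464), a call lost without any of the 4 libraries, with DESeq2 (adjusted p = 0.176) and with the replicate number as a block (edgeR adjusted p = 0.0743). Klf2 was the member that fell (-0.56 ± 0.19), a call lost without E12.5 replicate 1 or 2 or E13.5 replicate 1.

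Germ cell genes moved in the same direction at that step. Of 11 tested, 7 rose and 1 fell from E12.5 to E13.5 (median 1.13 against 0.03 for all genes), with Dppa3 at 11 and 11 counts and then 86 and 86. The 12 germ cell genes had summed CPM (counts scaled by library size) of 30.4 to 30.8 in the E12.5 libraries, of 73.9 to 74.3 in those of E13.5, of 150.1 to 194 in those of E16.5 and of 32.8 to 33.8 in P6w, with none at 0. Unlike Pou5f1, the meiotic gene Sycp3 was highest at E16.5, at 832 and 905 counts. The part of germ cells left in the somatic fraction in the Pou5f1 level was not tested.

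At E16.5 the mean levels of Tfcp2l1 and Tbx3 were at their highest. Tfcp2l1 had 405 and 365 counts against 152 and 112 at E13.5 (1.49 ± 0.23, edgeR adjusted p = 8.57e-05), and Tbx3 528 and 290 counts against 106 and 107 (1.83 ± 0.21). Klf2 rose as well (0.69 ± 0.19, lost without E13.5 replicate 1), so that 3 members rose and 1 fell from E13.5 to E16.5, where 54.1% of all genes were called, 28.7% higher and 25.4% lower. Klf4 was not called at E16.5 against E13.5 or E12.5, though it was without E16.5 replicate 1 (0.47 and 0.50) and without the count filter (0.31 and 0.32), and against E13.5 with gene length as an offset. Pou5f1 was not called against E12.5, though it was without E12.5 replicate 2 (-1.19) and with gene length as an offset (-1.02). Without the E12.5 libraries in the fit the number called stayed at 4. Against E12.5 the 3 members called at E16.5 were all higher (37.6% of genes called, 20.5% higher), Tfcp2l1 by 2.11, Tbx3 by 1.78 and Zfp42 by 2.40, with 19 and 21 counts of Zfp42 against 4 and 4. The Zfp42 call was lost without either E12.5 library or E16.5 replicate 2, with lane as a term and with DESeq2. Fibroblast genes rose in 7 of 8 from E13.5 to E16.5, from a summed 659 to 675 CPM to 2568 to 2902 CPM with none at 0, and their part was not tested.

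In P6w 6 of 8 members were below E16.5 and 0 above, against 56.1% of all genes called, 29.8% lower and 26.3% higher. Klf4 had 868 and 758 counts against 5854 and 5283 (-2.11 ± 0.14, edgeR adjusted p = 5.05e-09), Tfcp2l1 55 and 41 against 405 and 365 (-2.33 ± 0.26) and Klf2 107 and 145 against 533 and 434 (-1.25 ± 0.20). Sox2 and Zfp42 had 0 counts in both P6w libraries. With 3 counts per library as the floor, Sox2 was at least 2.12-fold lower and Zfp42 at least 4.27-fold lower in P6w than at E16.5. The Sox2 bound rested on E16.5 replicate 1, without which it was 1.24-fold, while that of Zfp42 ran from 3.36 to 5.19 with 1 library left out. Nanog had 3 counts in P6w against 27 at E16.5, a CPM ratio of 5.56 (95% counting interval 1.71 to 28.7), and its call was lost without E16.5 replicate 1 or either P6w library, and with lane as a term. It was lost as well with DESeq2, with the replicate number as a block, without the count filter and with gene length as an offset. The Sox2 call was likewise lost without E16.5 replicate 1 or either P6w library, and with lane as a term (edgeR adjusted p = 0.0518). Tbx3 (210 and 181 counts) and Pou5f1 did not pass the test at this step, though Tbx3 did without E16.5 replicate 2 (-0.51). Against E12.5, Tbx3 was higher in P6w (1.44) and Klf2 (-1.12) and Klf4 (-1.77) lower, 3 of 8 with 52.9% of all genes called, 25.4% higher and 27.5% lower. P6w and E12.5 shared no lane, so stage and lane are separated there only through the E16.5 libraries. Prdm14 had 11 and 6 counts at E13.5, 2 and 0 at E12.5, 1 and 0 in P6w and 0 at E16.5, where it was at least 2.87-fold lower than at E13.5 (2.16 to 3.57 with 1 library left out).

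**Figure D4:**
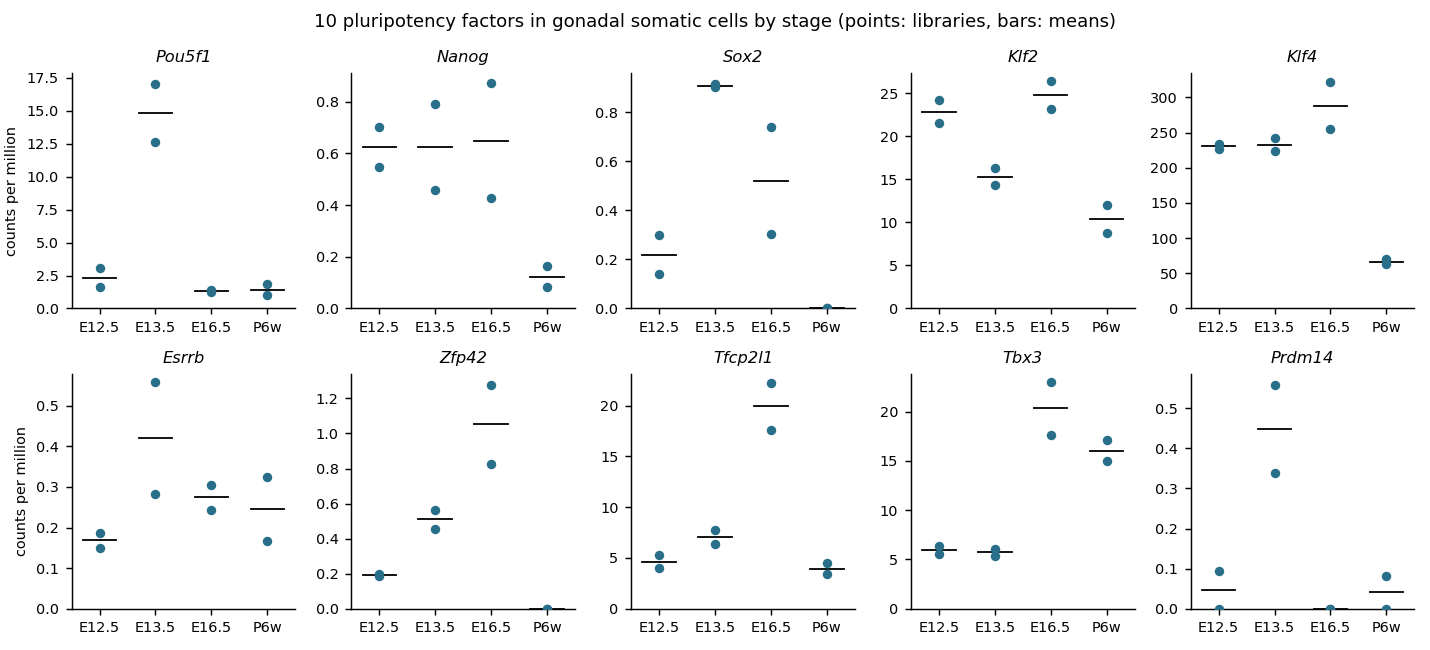
CPM, counts scaled by library size, of the 10 factors (vertical axis) in gonadal somatic cells by stage (horizontal axis, E12.5 to P6w), 1 point per library (n = 2 per stage). Pou5f1 stands out at E13.5 (mean 14.9 CPM against at most 2.34 CPM elsewhere), and Tfcp2l1 at E16.5 (19.9 CPM).

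The study describes its droplet sequencing of V580 cells at D6 as done in triplicate. The cells analysed here came as 1 table under 1 sample label, with 1 barcode suffix and no map to runs, and were treated as 1 sample, so the values below have no replicate and no test, and their exact 95% binomial intervals cover counting error only. Of 15412 barcodes 15315 passed the filters of 200 genes and 40% mitochondrial UMIs, with a median of 9281 UMIs and 3074 genes. Doublets were not removed. Tbx3 was the most widely detected member, with a UMI in 29.98% of cells (29.3 to 30.7%), followed by Klf4 in 16.7% (16.2 to 17.3%), Zfp42 in 6.16%, Klf2 in 3.36%, Tfcp2l1 in 3.34% and Sox2 in 2.68%. Pou5f1 was found in 237 cells (1.55%), Nanog in 101 (0.660%), Esrrb in 27 (0.176%) and Prdm14 in 6 (0.0392%). Tbx3, Klf4 and Zfp42 were also the 3 highest in CPM over all cells, at 59.0, 31.8 and 7.85. When 10237 cells were thinned to 3000 UMIs each and the shallower cells left out, Tbx3 was found in 14.2%, Klf4 in 7.31%, Pou5f1 in 0.488% and Nanog in 0.313%.

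The members were spread over the 12 clusters in different ways. Tbx3 was found in 67.3% of the cells of cluster 3, which was led by Col6a2, Lum and Col1a1 (121 CPM), and in 66.1% of cluster 7, led by Srgn, Rbp4 and Hs3st1. Cluster 7 also had Klf4 in 69.9% of its cells (89.1 CPM), Zfp42 in 35.5% and Tfcp2l1 in 17.2%. It was the deepest of the larger clusters, with a median of 22737 UMIs, and after thinning its shares were 17.0% for Tbx3, 21.7% for Klf4, 5.68% for Zfp42 and 3.17% for Tfcp2l1, against 29.5% for Tbx3 in cluster 3. Cluster 8, led by Rhox9, Sct and Rhox6, had Klf2 in 15.3% of cells and Zfp42 in 19.5% at a median of 2992.5 UMIs, 10.3% and 9.70% after thinning. Cluster 11, 25 cells led by Gm20767, B020031M17Rik and Zscan4d, had Klf2 in 7 cells and Zfp42 in 5, and Nanog in 1. Sox2 was found in 15.2% of cluster 5, led by Wfdc2, Cxcl15 and Cldn3, and in 6 of the 66 cells of cluster 10, which was led by the neuronal genes Nefm, Tubb3 and Sst. Clusters were set by all variable genes and these shares are descriptions of them.

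Pou5f1 was found at low shares almost everywhere. Clusters 1, 2 and 3, with median depths of 12156, 17182 and 14108 UMIs, had it in 1.73%, 1.88% and 1.21% of cells and Nanog in 0.608%, 1.32% and 0.202%. Whether UMIs at these shares came from the cells themselves or from background was not tested. Cluster 7, at a greater depth, had Pou5f1 in 4.20% and Nanog in 0.431%. Cluster 5 stood above clusters 1 to 3, with Pou5f1 in 5.13% and Nanog in 3.33% of 1052 cells at a median of 15985.5 UMIs. After thinning it had 1.35% for each. Thinned shares were 0.346% and 0.0692% in cluster 3, 0.357% and 0.306% in cluster 2, and 0.873% and 0.109% in cluster 7. Without the 26 cells of cluster 5 that are set apart below, its other 1026 cells had Pou5f1 in 3.12% and Nanog in 0.877%. That Nanog share lay between those of clusters 1 and 2, and that Pou5f1 share was below the 4.20% of the deeper cluster 7.

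Cells were then counted by how many members they held. Of 7 core members (Pou5f1, Nanog, Sox2, Esrrb, Zfp42, Tfcp2l1 and Prdm14), 13454 cells had UMIs of 0 genes, 1595 of 1 gene, 217 of 2, 23 of 3, 5 of 4, 7 of 5 and 14 of 6. The 26 cells with 4 or more, a limit set after the values were seen, were 0.170% of all cells (0.111 to 0.249%), and all of them were in cluster 5. They held 73.7% of all Nanog UMIs, 70.5% of the Esrrb, 3 of the 6 Prdm14 UMIs, 32.3% of the Sox2 and 26.4% of the Pou5f1 UMIs, but 6.18% of the Zfp42 and 5.45% of the Tfcp2l1 UMIs. The choice of the cells rests on these genes, so these shares are no test. The cells were deep (median 26996 UMIs) and are set beside 2136 other cells of at least 20000 UMIs (median 25525).

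The 7 core members had been taken as those without a high level elsewhere in this same sample. Yet Zfp42, which was kept, had a UMI in 6.16% of all cells, and Klf2, which was left out, in 3.36%. The 3 members left out are therefore no independent check, and they differed among themselves in the 26 cells. Klf2 was found in all 26, at 322 CPM against 4.87 CPM in all other cells, and 23.4% of its UMIs lay there. Klf4 was found in 12 of 26, at 40.1 CPM against 31.8 CPM in all other cells. Tbx3 was found in 20 of 26, at 77.4 CPM against 58.9 CPM. The 26 cells held 0.579% of the Klf4 and 0.604% of the Tbx3 UMIs.

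**Figure D5:**
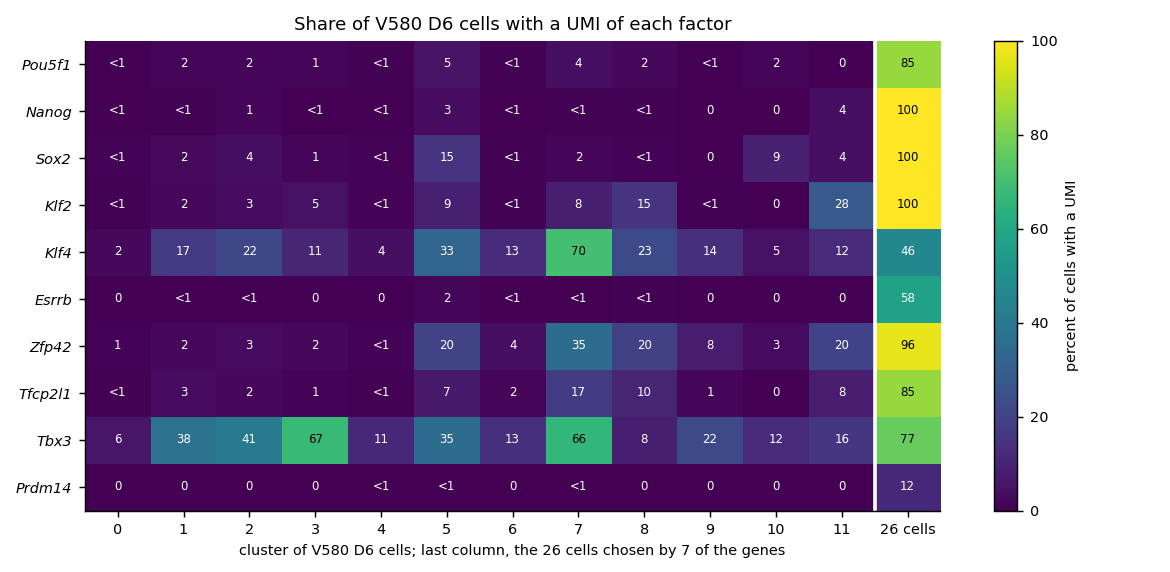
Percent of cells with a UMI of each of the 10 factors (rows) in the 12 clusters of V580 D6 cells and in the 26 cells with at least 4 of 7 core members (columns), as a heat map with the values in the squares. Tbx3 and Klf4 reach 66.1% and 69.9% in cluster 7, and Pou5f1 exceeds 5% in cluster 5 (5.13%) and the 26 cells.

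Genes outside the 10 described these cells further, and those named here were chosen after their values were seen. Of the 18 additional pluripotency genes, 16 had a higher CPM in the 26 cells than in the 2136 deep cells, and Klf5 (53.4 against 63.2 CPM) and Lin28a (37.4 against 45.9 CPM) a lower one. Dppa5a was found in 26 of 26 cells (6633 CPM against 41.7 CPM in the 2136 deep cells). Gdf3, a Tgf-beta family ligand, was found in 21 of 26 against 4 of 2136 cells, and Fgf4 in 15 of 26 against 0 of 2136, where 3 counts of the total limit the share of cells with a UMI to 0.140%. Utf1 was in 22, Dppa4 in 23, Sall4 in 25 and Nr5a2 in 13 of the 26 cells. Of the 12 formative and primed genes, 6 were higher in CPM than in the deep cells and 5 lower. Nodal was in 21 of the 26 cells and Zic2 in 14. Otx2, Fgf5, T and Fgf8 had 0 UMIs in the 26 (3 counts limit the share with a UMI to 11.54%). Fgf5 was found in 18.8% of the other deep cells. Otx2, T and Fgf8 were found in only 0, 8 and 13 of those 2136, so their absence does not tell the 26 apart. Of 12 germ cell genes, 10 were higher in CPM than in the deep cells. Dppa3 was in 23 of 26 cells against 8 of 2136, Dazl in 21 against 122 and Stra8 in 23 against 259, while Dnd1 had 0 UMIs in the 26 against 38.4%. Stra8 is among the 10 genes that led cluster 5 itself. Beside the other 1026 cells of that cluster, at a lower median of 15756 UMIs, Stra8 was at 988 against 97.9 CPM, Dppa3 at 286 against 0.77 CPM and Dazl at 249.7 against 10.6 CPM. All 6 mesothelial genes were lower in CPM than in the deep cells, with Upk3b in 4 of 26 cells against 55.6% and Krt19 in 13 against 83.1%. Of 8 extraembryonic endoderm genes 7 were lower, Dab2 among them (10 of 26 against 86.8%), and Amn was higher (5.34 against 2.30 CPM). No name is given to these cells, because their members were set by the count of core genes.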

How the data were processed

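RNA sequencing of 31 bulk libraries with FPKM values, 8 with counts and 1 droplet sample was used. The authors deposited FPKM per gene, counts per gene not normalized, and UMI counts per gene and cell. The submitters' processing notes name Trim Galore, FastQC, HISAT2, SAMtools, featureCounts, RSEM and mm10, and the methods give Cell Ranger on mm10 for the cells. Use of strand in counting was not given in the sources used here, and Pou5f1, Tbx3 and Tfcp2l1 overlap antisense or small RNA genes. A further table, with 10 value columns that matched no sample, and the aggregate samples were not used.

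FPKM were analysed as log2(FPKM + 1) with limma 3.58.1, 1 model for the 8 treatment groups, 1 for D4 to D10 with E12.5_GC, and 1 joining 48 h and D4, over genes with at least 1 FPKM in 2 libraries (3 for the days). Counts were tested with edgeR 4.0.16 (quasi-likelihood, TMM) on R 4.3.3, with DESeq2 1.42.0 as an alternative. Low FPKM values were whole multiples of 1 fragment for 95.02% of genes in all libraries (tolerance 0.05), and edgeR on these recovered fragments, like the fit without the E12.5 count libraries, was added after the data were seen. Cells with 200 genes and up to 40% mitochondrial UMIs were clustered with scanpy 1.11.5 (genes in 3 cells, 2000 variable genes, 20 components, 20 neighbours, Leiden resolution 0.5, seed 0) with no doublet step. Intervals are 95% exact, and counts of 0 were bounded by 3 counts.

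The replicate numbers were not used to pair libraries in the main fits. The members and lists were chosen with earlier results of these data known. All 10 members are named, and of each other list up to 3 genes with the highest mean level, or those chosen after their values were seen where so stated. Dppa3 was named after its values were seen at each mention. Scripts were tested on simulated data. The gene most similar in pattern to Nanog is not reported here.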

Additional observations from a re-analysis of the deposited data

Results flagged for a closer look

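The effects of the compounds on 18 occasions differed between times or with the second compound, by an interaction term fitted with limma over all genes. The AM580 effect at 48 h minus that at 24 h was -1.11 for Pou5f1, -0.77 for Sox2, 1.17 for Klf2, 0.63 for Esrrb, 0.27 for Zfp42, 0.48 for Tfcp2l1 and 0.60 for Tbx3 (log2, called for 35.0% of all genes). The Tfcp2l1 value was not called without AM580 24 h replicate 1, AM580 48 h replicate 1 or Con 24 h replicate 1, nor the Zfp42 value without AM580 48 h replicate 2, Con 24 h replicate 2 or Con 48 h replicate 1.

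For V580 the same difference was -0.996 for Pou5f1, -0.63 for Nanog, -0.88 for Sox2, 1.85 for Klf2, 0.40 for Klf4 and 0.27 for Tbx3 (33.9% of all genes called). The Klf4 call was lost without Con 48 h replicate 2, and the Tbx3 call without any V580 library or replicate 1 of either control group. The effect of Vc at 48 h with AM580 minus its effect alone was -0.63 for Nanog, 0.33 for Sox2, 0.51 for Klf2, -0.51 for Esrrb and -0.50 for Tbx3.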

How the results depend on the processing

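No called difference of a member changed sign under any alternative run. Of 2628 alternative member differences, 2413 kept their side of the threshold, 188 lost the call and 27 gained one. Where a difference of at least 2-fold was also asked for, the number of members called became 0 for Vc at both times, for AM580 and V580 at 24 h, for V580 against AM580 at both times and for the 48 h interaction of Vc with AM580. It became 3 for AM580 and 3 for V580 at 48 h, 2 and 1 for their changes between times, and 1 from D6 to D8 and 1 from D8 to D10. Fitted on the compared groups alone, Vc at 24 h called 0 members. Leaving out 1 library at a time gave 3 to 6 members for Vc at 24 h and 2 to 3 at 48 h, 4 to 6 and 7 to 9 for AM580, 6 to 7 and 7 to 8 for V580, 2 to 5 and 4 to 5 for V580 against AM580, 9 to 9 for control time, 6 to 7 and 5 to 6 for the changes of the AM580 and V580 effects, and 0 to 0 and 4 to 5 for the interaction of Vc with AM580. It gave 9 to 9 from 48 h to D4, 6 to 6, 1 to 2 and 4 to 5 for the successive days, and 7 to 7, 6 to 7, 6 to 7 and 6 to 6 against E12.5_GC. For the stages it gave 1 to 2 for E13.5 against E12.5, 2 to 4 for E16.5 and 3 to 3 for P6w against E12.5, 3 to 5 for E16.5 against E13.5 and 4 to 7 for P6w against E16.5. Deviations of same-numbered libraries from their group means correlated from -0.424 to 0.209 (median 0.016) over 56 treatment pairs. Over 30 pairs of the D4 to D10 and E12.5_GC libraries they ran from -0.431 to 0.386 (median 0.028). Of these, 14 and 9 pairs were above 0.1, and 0 of 12 among the stages. The replicate numbers were not taken as pairs, and whether they mark shared cultures was not tested. With the replicate number as a block, the members called went from 3 to 2 for Vc at 48 h, from 3 to 2 for E13.5 against E12.5 and from 6 to 5 for P6w against E16.5. Prdm14, at up to 33 recovered fragments per library, was too shallow for a test.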
